A study of Homo sapiens with 19 samples.

Results

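The genes described here are 9 immediate early genes matched by Ensembl identifier: FOS, FOSB, FOSL1, JUN, JUNB, JUND, EGR1, IER2 and IER3. They are 9 of the 32703 gene identifiers that were listed in every deposited matrix, and all 9 were measured in every library. The data are droplet single-cell RNA counts from human liver organoids grown from W01, a human pluripotent stem cell line from WiCell with a wild-type genotype, prepared with the 10x Genomics 3′ version 3 kit. UMIs, counts of distinct captured RNA molecules, were summed over all kept cells of a library and are given as CPM, the usual scaling of a gene's UMIs by the library's total. The library, not the cell, was the replicate.

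All organoids came from the same line, so nothing here speaks of other donors, and the labels do not say whether replicates were separate differentiations. P-values therefore measure the spread between these libraries, which may be technical. Untreated organoids on ultra-low attachment (ULA) plates were collected on day 21 (n = 3) and on day 34 (n = 2). The remaining groups were organoids kept on an orbital shaker (OS) and collected on day 25, with 2 libraries each: untreated, those given TGFB1 (10 ng/ml), PA (500 µM) or OA (500 µM), and a separate control group for each of the 3 agents. TGFB1 is transforming growth factor β1, a cytokine that drives fibrosis, while the labels give PA and OA as abbreviations only. TGFB1 and PA were applied for 5 days after 20 days of culture, and the treatment protocol does not mention OA. Day 21 ULA organoids were dissociated with trypsin for 10 minutes, and every other group went through an additional wash and 10 more minutes of trypsin.

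Immediate early genes are transcribed within minutes of a stimulus from factors already present in the cell, without new protein synthesis. Growth factors reach many of them through EGFR and ERK signalling, ERK then activates ternary complex factors bound with SRF at CArG boxes, and other kinases act through CREB or ATF proteins at CRE sites. FOS, FOSB and FOSL1 pair with JUN, JUNB or JUND through leucine zippers to form AP-1, a DNA-binding dimer. EGR1 is a zinc finger transcription factor, and IER2 and IER3 are further early response genes, IER3 being a stress-inducible gene linked to cell survival. Detaching and dissociating cells is itself a known inducer of FOS and JUN in liver and other tissues, so the trypsin step belongs beside every comparison in which it differs.

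Promoters in the RefSeq table (GRCh38.p14, 250 bases before to 50 after the start) were found for 7 of the 9 genes. FOSL1 and IER3 are named only. In GRCh38 with GENCODE v44, FOS lies at chr14:75278826-75282230, FOSB at chr19:45467995-45475179, JUNB at chr19:12791486-12793315, EGR1 at chr5:138465479-138469303 and IER2 at chr19:13150411-13154911, all on the plus strand. FOSL1 lies at chr11:65892049-65900573, JUN at chr1:58776845-58784048, JUND at chr19:18279694-18281622 and IER3 at chr6:30743199-30744548, on the minus strand. The stretches below were chosen for their matches to the motifs named next, and known response elements of these genes can lie elsewhere. Capitals mark TGACG or its reverse complement CGTCA (the CRE half-site), the full CRE TGACGTCA, CArG boxes and TATAAA, each on the gene's own strand, 5′ to 3′.
FOS (chr14:75278753-75278807, plus strand): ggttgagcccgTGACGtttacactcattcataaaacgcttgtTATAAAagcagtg
FOSB (chr19:45467921-45467975, plus strand): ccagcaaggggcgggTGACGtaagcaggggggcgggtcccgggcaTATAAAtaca
JUN (chr1:58784148-58784187, minus strand): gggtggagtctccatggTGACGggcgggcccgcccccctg
JUNB (chr19:12791331-12791370, plus strand): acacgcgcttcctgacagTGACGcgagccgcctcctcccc
JUND (chr19:18281798-18281837, minus strand): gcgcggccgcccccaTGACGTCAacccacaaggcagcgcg
EGR1 (chr5:138465364-138465423, plus strand): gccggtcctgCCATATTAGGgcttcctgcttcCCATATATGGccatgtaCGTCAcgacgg
IER2 (chr19:13150251-13150290, plus strand): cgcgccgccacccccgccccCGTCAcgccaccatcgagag

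The CRE half-site was present in 7 of these 7 windows, on either strand, against 24.6% of the 35116 promoters of the table. The full palindrome TGACGTCA, which contains the half-site in both orientations, was found in JUND alone and in 1.85% of all promoters. CArG boxes (CC, then 6 bases of A or T, then GG) were found in EGR1 alone, as CCATATTAGG and CCATATATGG at 105 and 83 bases before the start, and in 1.29% of all promoters. TATAAA stood 33, 30 and 31 bases before the start in FOS, FOSB and JUNB, against 11.5% of promoters, and GCGCGGGCG, a match to the EGR motif, stood in EGR1, against 9.43%. No window held the AP-1 motif TGACTCA or its reverse complement TGAGTCA, which 4.95% of promoters did. These are matches of letters in a 300-base window and not measured binding sites, so the shared half-site is given as a description.

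A total of 120240 cells were kept, from 3089 to 12427 per library, with 6880807 to 91184130 UMIs per library and median depths of 1310 to 14304.5 UMIs per cell. The shallowest libraries were replicate 1 of the TGFB1 control and replicate 1 of the PA control (medians of 1310 and 1747 UMIs). Any pair of libraries shared at most 32 cell barcodes, or 0.581% of the smaller library. All 7 hepatocyte markers (ALB, AFP, APOA1, APOA2, TTR, SERPINA1 and FGB) were detected in each group, with a summed level from 94.99 CPM in a day 34 ULA library to 23873 CPM in a PA library. Fold changes come from edgeR's quasi-likelihood test with TMM scaling, which corrects for abundant genes that crowd the total, whereas CPM uses the total alone. Using totals in place of TMM moved the median log2 fold change of all genes by -0.34 for OA, -0.19 for TGFB1, -0.15 for the OA control against untreated and 0.13 for ULA, so fold changes here are relative to the bulk of genes. They are given on the log2 scale, as log2 differences. A gene is called when its Benjamini-Hochberg adjusted p over all genes tested was under 0.05.

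Across the 9 groups, 7 of the 9 genes had their lowest mean in day 21 ULA organoids. The exceptions were FOSB, lowest with OA, and FOSL1, lowest in the TGFB1 control. The share of all genes lowest in day 21 ULA is not given, so this count does not set the 9 genes apart. FOS was highest in untreated OS organoids, at 1656 and 1357 CPM in replicates 1 and 2, above every other library of the series. It then ran through PA, the TGFB1 control, the OA control, day 34 ULA and the PA control with neighbouring groups overlapping, and ended with OA, TGFB1 and day 21 ULA, of which the last pair overlapped. JUN showed less order: from day 34 ULA down to TGFB1, each neighbouring pair of the first 8 groups overlapped, and day 21 ULA stood below all of them. EGR1 likewise overlapped between neighbours in its first 6 groups, with the TGFB1 and day 21 ULA groups at the bottom (means of 72.3 and 72.2 CPM). JUNB and IER3 were highest with TGFB1, JUND, IER2 and EGR1 with PA, FOSB in the PA control, JUN in day 34 ULA and FOSL1 with OA.

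**Figure D1:**
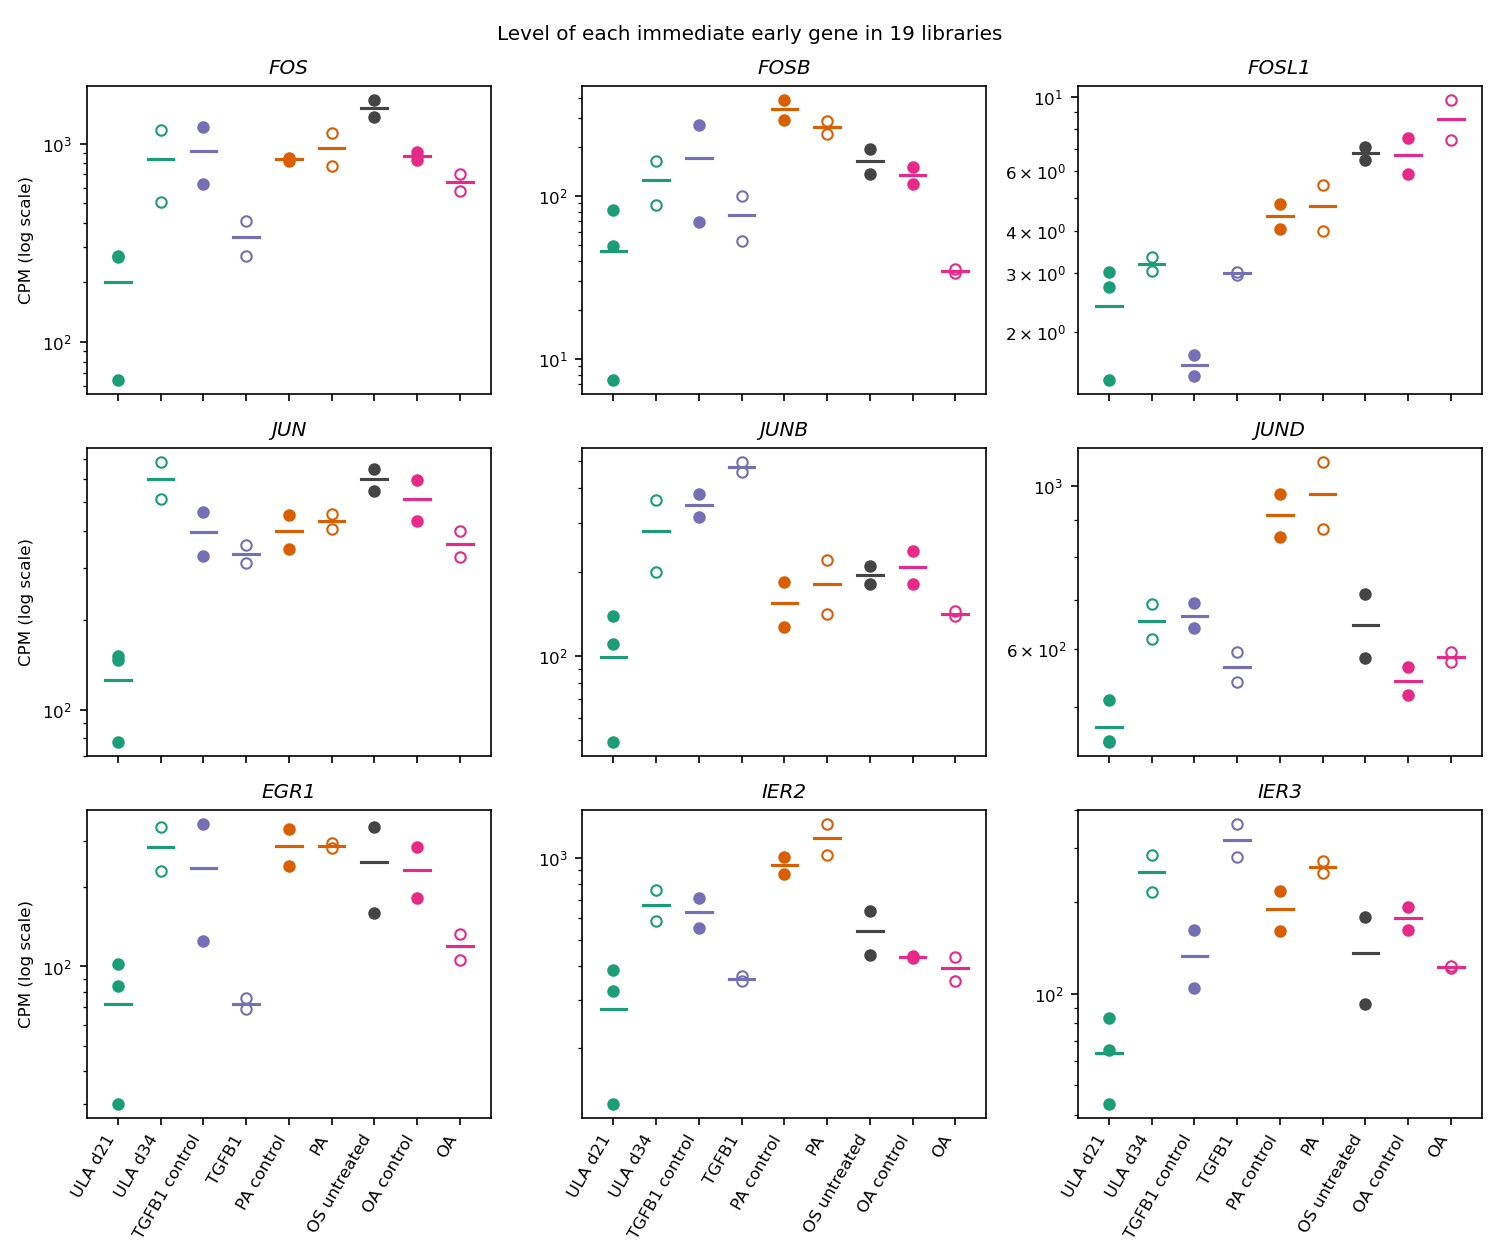
CPM on a log axis (y) of 9 immediate early genes in 9 groups of organoids (x), with 1 point per library and a bar at the group mean; open points are day 34 ULA and the treated groups, filled points the others. Day 21 ULA has the lowest mean for 7 of the 9 genes, with JUN at 77.9 to 151.9 CPM against 312.7 CPM or more in every other library.

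Libraries of 1 group differed for these genes, and in ULA organoids the 9 genes differed in the same direction. Day 21 replicate 2 was the lowest of its 3 libraries for 9 of 9 genes, with the highest library 1.14 times as high for JUND and 10.9 times for FOSB. Day 34 replicate 2 was the lower library for 9 of 9 genes as well, by 1.10 to 2.30 times. OA replicate 1 was the lower for 9 of 9 genes by 1.01 to 1.32 times, so the OA pair was much closer. The shares of all genes lowest in these same libraries are not given, so the counts do not set the 9 genes apart. In the TGFB1 control, replicate 1 exceeded replicate 2 for 7 of the genes, by 3.92 times for FOSB, 2.79 times for EGR1 and 1.94 times for FOS. IER2 and IER3 went the other way, with replicate 2 higher by 1.29 and 1.54 times. The fitted errors below include this spread.

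The first comparison asked how the genes stood after longer culture on ULA plates. Day 34 organoids held more RNA of all 9 genes than day 21 organoids, without overlap of the groups, and JUN and IER3 passed the test. That is 2 of 9 called higher and 0 lower, against a background of 15.8% of 22261 genes called (8.54% higher). The 9 non-overlapping genes stand against 31.5% of all genes that lay wholly higher on day 34. Lower calls covered 7.27% of all genes. With library totals, the share of called genes that was higher went from 54.0% to 66.9%, and EGR1 was called as well. The trypsin step was 10 minutes longer on day 34, so age of culture and dissociation cannot be told apart. Marker levels differed too: the summed hepatocyte markers ran from 2292 to 2650 CPM on day 21 and from 94.99 to 830 CPM on day 34, and the 5 cycling markers from 910 to 992 and from 397 to 571 CPM. The 7 immune markers ran from 86.1 to 163 and from 2.83 to 35.6 CPM (C1QA at 0 on both days), and the 5 neural markers from 8.18 to 9.58 and from 22.3 to 74.3 CPM. The median mitochondrial share of UMIs per cell was 6.85%, 7.31% and 11.05% in the day 21 libraries and 3.89% and 5.99% in those of day 34. Their part in the result was not tested, and in whole libraries fewer cells of a type and less RNA per cell cannot be told apart.

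JUN, the founding AP-1 subunit, stood at 151.9, 77.9 and 146.6 CPM in day 21 replicates 1 to 3 and at 683.8 and 514.7 CPM on day 34. Both day 34 libraries were more than 3 times above any day 21 library. The log2 difference was 2.13 (SE 0.299, edgeR adjusted p 0.00529), and JUN was called in each of the 5 fits that left out 1 library. IER3 stood at 83.4, 43.5 and 65.2 CPM on day 21 and at 286.3 and 216.5 CPM on day 34, with a log2 difference of 1.85 (SE 0.269, edgeR adjusted p 0.00602). Its call was lost without day 21 replicate 3, at an adjusted p of 0.0565. With a term for replicate number in the fit, neither JUN nor IER3 was called (edgeR adjusted p 0.0764 and 0.082). Replicate numbers did not pair these libraries, as deviations of same-numbered libraries from their group means correlated at -0.1654 and -0.2695.

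The other 7 genes had positive differences that did not pass. FOS, a partner of JUN in AP-1, was at 268.6, 64.8 and 273.2 CPM on day 21 and at 1164 and 505 CPM on day 34. Its log2 difference of 1.92 was close in size to that of JUN, but the SE was 0.671 and the edgeR adjusted p 0.114. EGR1 was at 84.2, 30.1 and 102.4 CPM on day 21 and at 337.3 and 231.0 CPM on day 34, a log2 difference of 1.85 (SE 0.495, edgeR adjusted p 0.0559), which passed under DESeq2 (adjusted p 0.00125). FOS and JUNB passed under DESeq2 as well (adjusted p 0.00795 and 0.0161). The share of all genes that DESeq2 called is not given, so these passes do not set these genes apart. Without day 21 replicate 2, the lowest library of its group, EGR1 was called by edgeR (1.48, adjusted p 0.0339). JUNB had a log2 difference of 1.38 (SE 0.448), FOSB of 1.31 (SE 0.879) and IER2 of 1.15 (SE 0.438). The smallest differences were those of JUND (0.35, SE 0.170), a subunit known for steady expression, and FOSL1 (0.29, SE 0.340).

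Other genes of the early response were called as well. The counts below stand beside the 8.54% of all genes called higher and 7.27% called lower. Some genes stand in 2 lists, here and in the other comparisons. ATF3, FOSL2 and MAFF are both among other immediate early genes and among relatives of AP-1. SRF is both among other immediate early genes and among upstream kinases and SRF cofactors. Of 28 tested genes in a list of other immediate early genes, 15 rose and 0 fell, with a median log2 difference of 1.53 against 0.01 over all genes. EGR2, a relative of EGR1, rose by 2.72 (SE 0.533), ATF3, a stress-induced bZIP factor, by 2.66 (SE 0.308) and ZFP36, which encodes a protein that promotes decay of short-lived mRNAs, by 2.50 (SE 0.534). ATF3 was called in 5 of the 5 fits with a library left out, and EGR2 and ZFP36 in 2. Among 13 relatives of AP-1, 6 rose (BATF by 2.64) and 2 fell (BATF2 by 2.73), among 12 upstream kinases and SRF cofactors 3 rose (SRF by 1.19, ELK3 by 1.13 and ELK4 by 0.84), and among 11 ERK feedback genes 4 rose (DUSP4 by 1.44, SPRY4 by 1.34 and DUSP6 by 1.32) and 1 fell. Of 7 EGFR ligands 4 rose, AREG going from 22.5 ± 5.9 CPM (SD, n = 3) to 185.9 ± 13.5 CPM (n = 2), a log2 difference of 2.91 (SE 0.238, edgeR adjusted p 9.9e-04). The 11 tested AP-1 target genes gave 4 that rose, led by CXCL8 (3.23), MMP10 (2.50) and PLAU (1.68), and the 5 EGR corepressors and targets gave 2, EGR4 (4.73) and NAB2 (0.91). Some of these rest on low levels. Day 21 means were 0.122 CPM for EGR4, 0.21 for BATF, 0.654 for CXCL8 and 0.96 for MMP10, and the day 34 mean of BATF2 was 0.104 CPM. AREG, MMP10 and PLAU were called in 5 of 5 fits with a library left out, and BATF, BATF2, SRF, ELK3, ELK4, the ERK feedback genes, CXCL8, EGR4 and NAB2 in 2 to 4 of 5. Of 13 heat shock genes HSPB1 rose by 1.19 and HSPD1 fell by 0.82, each called in 2 of 5 such fits, and the list's median was -0.22.

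Untreated OS organoids of day 25 stood above day 21 ULA organoids for all 9 genes, again without overlap, and 6 passed: FOS, FOSL1, JUN, JUNB, EGR1 and IER3. The background was 47.6% of 18642 genes called, 25.2% higher and 22.3% lower, and 31.8% lay wholly higher. Among the 6 called genes FOS showed the largest difference, with a log2 difference of 2.93 (SE 0.511, edgeR adjusted p 0.00198), followed by JUN with 2.30 (SE 0.289, edgeR adjusted p 2.9e-04) and EGR1 with 1.85 (SE 0.494, edgeR adjusted p 0.0147). FOSL1 rose by 1.54 (SE 0.320), IER3 by 1.11 (SE 0.299) and JUNB by 1.02 (SE 0.354). The genes that did not pass were FOSB (1.89, SE 0.715, edgeR adjusted p 0.0569), IER2 (0.99, SE 0.400) and JUND (0.51, SE 0.200). JUN and FOSL1 were called in all 5 fits with a library left out. FOS was lost without either untreated library (adjusted p 0.125 and 0.117), EGR1 likewise (0.0924 and 0.357), and JUNB likewise (0.223 and 0.2) and without day 21 replicate 3 (0.0803). IER3 was lost without untreated replicate 1 (0.0896) or day 21 replicate 3 (0.0515). Culture vessel, day, trypsin time, the list of genes counted and the counting software version all differed between these groups and cannot be told apart. Summed markers differed as well, from day 21 ULA to untreated OS: hepatocyte markers went from 2292 to 2650 CPM up to 11117 to 11476 CPM, the 5 neural markers from 8.18 to 9.58 CPM up to 126 to 272 CPM, and the 7 immune markers from 86.1 to 163 CPM up to 246 to 594 CPM (C1QA at 0 in both). The 12 mesenchymal markers went from 2078 to 2679 CPM up to 3156 to 6393 CPM, and the 6 endothelial markers from 2.31 to 2.78 CPM up to 4.66 to 7.64 CPM (CLDN5 at 0 in untreated OS). Cycling markers went from 910 to 992 CPM down to 277 to 295 CPM. Their part in the result was not tested. With every gene with a count tested, FOS, EGR1 and JUNB were not called (adjusted p 0.0598, 0.169 and 0.107), nor was JUNB with library totals (0.0524).

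In the same comparison, in which 25.2% of all genes were called higher and 22.3% lower, 18 of 28 other immediate early genes rose and 1 fell, with a median of 1.62 against 0.01 over all genes. ZFP36 rose by 4.76 (SE 0.553), KLF2, a zinc finger factor, by 4.74 (SE 0.392) and ATF3 by 3.66 (SE 0.266). Of 7 EGFR ligands 6 rose, HBEGF by 2.98 (SE 0.337), and of 12 AP-1 targets 8 rose, CXCL8 by 6.04 (SE 0.363). All 5 were called in 5 of 5 fits with a library left out. Of 13 AP-1 relatives 6 rose and 1 fell, MAFF and MAF by 2.72 and 2.44 upward, and of 12 kinases and SRF cofactors 2 rose (ELK3 by 1.98 and ELK4 by 0.85) and CREB1 fell by 0.77. ERK feedback genes gave 2 higher (SPRY2 and DUSP5) and 2 lower of 11, where ETV5 fell by 1.25, and 3 of 5 EGR corepressors and targets rose, the TGFB1 gene by 1.76. Of 13 heat shock genes HSPB1 rose by 1.502 and HSP90AA1 and HSPA1A fell by 1.18 and 1.93, HSPA1A being called in 3 of those 5 fits.

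The trypsin step can be set against the levels more widely, since 16 libraries had the longer step and 3 the shorter. JUN, JUND and IER3 were higher in all 16 than in any of the 3, a separation that 5.49% of 14538 genes with a mean of at least 1 CPM showed in the same direction. FOS was above the highest day 21 library in 15 of the 16 (the exception, TGFB1 replicate 1, was at 272.6 CPM against 273.2 CPM) and JUNB in 15. EGR1 was above in 14, IER2 in 13, and FOSB and FOSL1 in 12. As the shorter step was used only on day 21 ULA organoids, this is a description of the libraries and no test of the step.

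With TGFB1, 4 of the 9 genes were called: IER3 and FOSL1 rose and FOS and EGR1 fell. FOSB, JUNB and IER2 did not pass, and JUN and JUND showed differences smaller than their SE. The 2 genes called higher and 2 called lower among 9 stand against 22.1% of 19366 genes called (10.8% higher and 11.3% lower). Here trypsin time, culture and day were the same in both arms. The control libraries differed in depth, with medians of 1310 and 5635 UMIs per cell. Summed cycling markers were at 234 to 329 CPM in the control and at 23.8 to 24.9 CPM with TGFB1, immune markers at 199.6 to 228 and at 33.4 to 45.1 CPM (C1QA at 0 in both), the 7 hepatocyte markers at 2688 to 3952 and at 4567 to 5393 CPM, the 5 neural markers at 57.6 to 60.3 and at 103 to 126 CPM, the 6 endothelial markers at 0.569 to 1.05 and at 1.29 to 2.78 CPM, the full list of 11 epithelial markers at 4767 to 7367 and at 8282 to 10419 CPM, and the 12 mesenchymal markers at 717 to 739 and at 1787 to 2197 CPM. Mesenchymal-marker cells, defined further on, were 2.98% and 3.42% of the control and 7.06% and 9.23% with TGFB1, and the share of epithelial-marker cells was 34.2% and 88.9% in the control and 56.0% and 57.2% with TGFB1. Cells of neither kind were 62.8% and 7.67% of the control replicates and 37.0% and 33.6% with TGFB1. A cell needed at least 5 UMIs of the marker genes to be counted as either kind, so these shares also depend on depth. The part of these differences in the result was not tested in whole libraries, and values within epithelial-marker cells are given further on.

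IER3 held 104.5 and 161.5 CPM in the control replicates and 360.7 and 280.8 CPM with TGFB1. Both treated libraries lay above both controls, with a log2 difference of 1.44 (SE 0.301, edgeR adjusted p 0.0045). The call was lost without TGFB1 replicate 1, at an adjusted p of 0.0522. FOSL1, an AP-1 subunit that usually follows the early wave, held 27 and 77 UMIs in the control, or 1.71 and 1.47 CPM, and 130 and 118 UMIs with TGFB1, or 2.95 and 3.01 CPM. Its level was low throughout, and the log2 difference was 1.11 (SE 0.284, edgeR adjusted p 0.0143). The adjusted p was 0.0636 when control replicate 1 was left out, and 0.0753 or 0.064 when a TGFB1 library was. With the stricter cell filter (at least 1000 genes and at most 10% mitochondrial UMIs) it was 0.0528.

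FOS held 1207 and 623 CPM in the control and 272.6 and 405.6 CPM with TGFB1, so that the 2 groups did not overlap, where 42% of all genes lay wholly lower with TGFB1 and 23.7% wholly higher. It fell by 1.21 in log2 units (SE 0.292, edgeR adjusted p 0.0106). EGR1 held 347.5 and 124.8 CPM in the control and 68.7 and 75.8 CPM with TGFB1, and fell by 1.46 (SE 0.442, edgeR adjusted p 0.0313). For both genes the higher control value came from the shallow replicate 1, and without it the log2 differences were -0.79 for FOS (adjusted p 0.0869) and -0.70 for EGR1 (adjusted p 0.378). FOS was also lost without TGFB1 replicate 1 (0.144), and EGR1 without TGFB1 replicate 1 (0.178) or replicate 2 (0.119). The direction was negative in each of these fits. In a fit of the TGFB1 groups alone, neither was called (adjusted p 0.0692 for FOS and 0.058 for EGR1), while IER3 and FOSL1 were. Over all 14 alternative fits, FOS was called in 11 and EGR1 in 9.

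JUNB was at 380.6 and 315.2 CPM in the control and at 497.7 and 458.7 CPM with TGFB1, without overlap, and its log2 difference of 0.66 (SE 0.232, edgeR adjusted p 0.0567) did not pass the test. IER2 had a log2 difference of -0.63 (SE 0.246, edgeR adjusted p 0.0814) and FOSB of -0.90 (SE 0.452, edgeR adjusted p 0.171). The groups of FOSB overlapped. With library totals in place of TMM, IER2 joined the genes called lower (log2 difference -0.82, adjusted p 0.0251), and of all genes called the share that was higher went from 48.96% to 31.6%. JUN, at -0.03 (SE 0.225), and JUND, at -0.03 (SE 0.223), had differences near 0.

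The related lists also held calls in both directions, beside 10.8% of all genes called higher and 11.3% lower. Of 28 other immediate early genes 4 rose and 8 fell. GADD45B, a known TGFβ-responsive gene, was higher by 2.41 (SE 0.535), and NR4A1 and EGR3 had log2 differences of -2.00 (SE 0.420) and -1.87 (SE 0.441). Those 3 were called in 3, 2 and 2 of the 4 fits with a library left out. ERK feedback genes gave 2 that rose and 4 that fell of 11: DUSP6, an ERK phosphatase, went from 89.3 ± 49.7 to 21.5 ± 1.28 CPM (SD, n = 2 each), a log2 difference of -1.82, DUSP5 fell by 1.74 and SPRY4 rose by 1.74, each called in 4 of 4 such fits. AP-1 target genes gave 8 that rose and 0 that fell of 14, with a median of 1.41 against -0.05 for all genes. PLAU, a protease, and its receptor PLAUR rose by 2.96 (SE 0.367) and 2.80 (SE 0.391), while MMP13 had 0 UMIs in both controls and 21 and 5 with TGFB1. EGFR ligands rose in 3 of 7 (HBEGF by 1.35, AREG by 1.28 and BTC by 1.04), 5 of 13 relatives of AP-1 rose (ATF3 by 1.01) and 1 fell, and among kinases and SRF cofactors ELK3 rose by 2.21 and SRF fell by 0.96. The TGFB1 gene itself, listed as an EGR target, rose from 57.7 ± 1.92 to 174.9 ± 1.89 CPM (SD, n = 2 each) and was the 1 of 5 EGR corepressors and targets called. With a library left out, PLAU, PLAUR, HBEGF, ELK3 and TGFB1 were called in 4 of 4 fits, ATF3 in 3, AREG in 2, and BTC and SRF in 1. Of 13 heat shock genes edgeR and DESeq2 called 0, with 3 at an unadjusted edgeR p under 0.05, beside 6967 of all 19366 genes.

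With PA no gene of the family passed the test. Of 9 genes 0 were called by edgeR and 0 by DESeq2, against 9 of 19366 genes called by edgeR (0.0465%). An unadjusted edgeR p under 0.05 was held by 0 of the 9 and by 541 of the 19366 genes. IER3 had the largest difference, from 160.6 and 218.1 CPM in the control to 272.6 and 248.5 CPM with PA, a log2 difference of 0.52 (SE 0.296, edgeR adjusted p 1). IER2 followed at 0.38 (SE 0.245), FOS at 0.24 (SE 0.288), JUN at 0.17 (SE 0.226) and EGR1 at 0.05 (SE 0.433), and FOSB was at -0.32 (SE 0.449). JUNB (0.28, SE 0.232), FOSL1 (0.20, SE 0.275) and JUND (0.14, SE 0.223) were also above 0. Only IER2 and IER3 lay wholly higher and FOSB wholly lower, where 8.38% and 14.7% of all genes did. In each of the 8 related lists edgeR called 0 genes. DESeq2 called 1, among the AP-1 targets, and the lists held 0 to 3 genes at an unadjusted p under 0.05. The medians of the lists lay between 0.06 and 0.37, against 0.02 over all genes.

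OA called 2 of the 9 genes, FOSB lower and FOSL1 higher, in a comparison in which 43.3% of 19366 genes were called (21.7% higher and 21.6% lower). With library totals in place of TMM, the share of called genes that was higher went from 50.1% to 30.6%, and FOSB alone of the 9 was called. In plain CPM, 6 of the 9 genes lay wholly lower with OA and JUND wholly higher, where 54.4% and 26.9% of all genes did. Mesenchymal-marker cells were 32.1% and 35.2% of the OA control and 1.04% and 0.652% with OA. Summed hepatocyte markers were at 8943 to 12415 CPM in the control and at 22554 to 22880 CPM with OA, cycling markers at 273 to 300 and at 95.6 to 103 CPM, neural markers at 191 to 269 and at 82.4 to 97.1 CPM, and the full list of 11 epithelial markers at 6560 to 6893 and at 9355 to 9950 CPM. The part of these shifts in the whole-library values was not tested.

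FOSB held 118.4 and 150.3 CPM in the control and 33.4 and 35.5 CPM with OA, the lowest mean of the 9 groups. It fell by 1.62 in log2 units (SE 0.460, edgeR adjusted p 0.0123), and by 1.97 with library totals. Without control replicate 2, OA replicate 1 or OA replicate 2 the adjusted p was 0.0548, 0.0728 or 0.0603, with a log2 difference from -1.71 to -1.53 over the fits with a library left out. FOSL1 stood at 7.52 and 5.88 CPM in the control and at 7.41 and 9.78 CPM with OA. The groups overlapped in CPM, the log2 difference was 0.68 (SE 0.254, edgeR adjusted p 0.0444), and it was 0.36 (adjusted p 0.281) with library totals and called in 5 of 14 alternatives. EGR1 was at -0.64 (SE 0.434), JUND at 0.45 (SE 0.223), JUNB at -0.21 (SE 0.232), IER3 at -0.19 (SE 0.295), JUN at -0.15 (SE 0.225) and FOS at -0.09 (SE 0.288). IER2 was at 0.20 (SE 0.245) and changed sign to -0.14 with library totals.

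Related lists held calls in both directions, and their counts stand beside the 21.7% of all genes called higher and 21.6% called lower. Of 28 other immediate early genes 9 rose and 5 fell, where EGR2 fell by 2.70 (SE 0.323), SOCS3 fell by 2.28 (SE 0.291) and NFKBIZ rose by 1.77 (SE 0.258). EGFR ligands rose in 5 of 7, with AREG going from 142.0 ± 1.7 to 472.4 ± 78.3 CPM (SD, n = 2 each), a log2 difference of 2.07 (SE 0.335, edgeR adjusted p 3.1e-04). ERK feedback genes rose in 6 of 11 and fell in 1, led by DUSP5 (2.60, SE 0.347) and SPRED1 (1.54, SE 0.274), and kinases and SRF cofactors rose in 6 of 12 and fell in 1, with MAPK3, which encodes ERK1, higher by 1.61 (SE 0.267). Of 14 AP-1 targets 4 rose, CXCL8 by 3.25 (SE 0.478), and 4 fell, VIM, a gene of mesenchymal cells, by 2.78 (SE 0.519). MMP3 had 46 and 142 UMIs in the control and 1 and 0 with OA. Of 13 AP-1 relatives 6 rose and 2 fell, with a log2 difference of -2.25 for BATF3. Of 5 EGR corepressors and targets 1 rose and 3 fell, among them NAB2, which fell by 1.79, and of 13 heat shock genes 4 rose. Each gene given here with its value in the OA lists was called in 4 of 4 fits with a library left out. Others among the called genes of largest change were less stable: RPS6KA1 and DUSP6 were called in 3 of 4 such fits, BATF2 and EGF in 2, EGR4 and HSPA1A in 1, and HSPA1B and BAG3 in 0.

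The OA control and the untreated OS organoids carry no named agent, and their matrices share a gene list and software version. Their comparison shows how far 2 such groups lie apart. Of the 9 genes 0 were called by edgeR and 0 by DESeq2, against 0.444% of 19366 genes called (0.062% higher and 0.382% lower). An unadjusted edgeR p under 0.05 was held by 1 of the 9 and by 2817 of the 19366 genes. The 1 of the 9 was FOS, at 1656 and 1357 CPM untreated and at 823 and 906 CPM in the control, a log2 difference of -0.65 (SE 0.289, edgeR adjusted p 0.324). IER3 was at 0.55 (SE 0.296), and the others lay between -0.17 and 0.24. In each of the 8 related lists edgeR called 0 genes, DESeq2 called 0 or 1, and 0 to 3 had an unadjusted p under 0.05. The OA control is part of both this comparison and the one with OA.

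**Figure D2:**
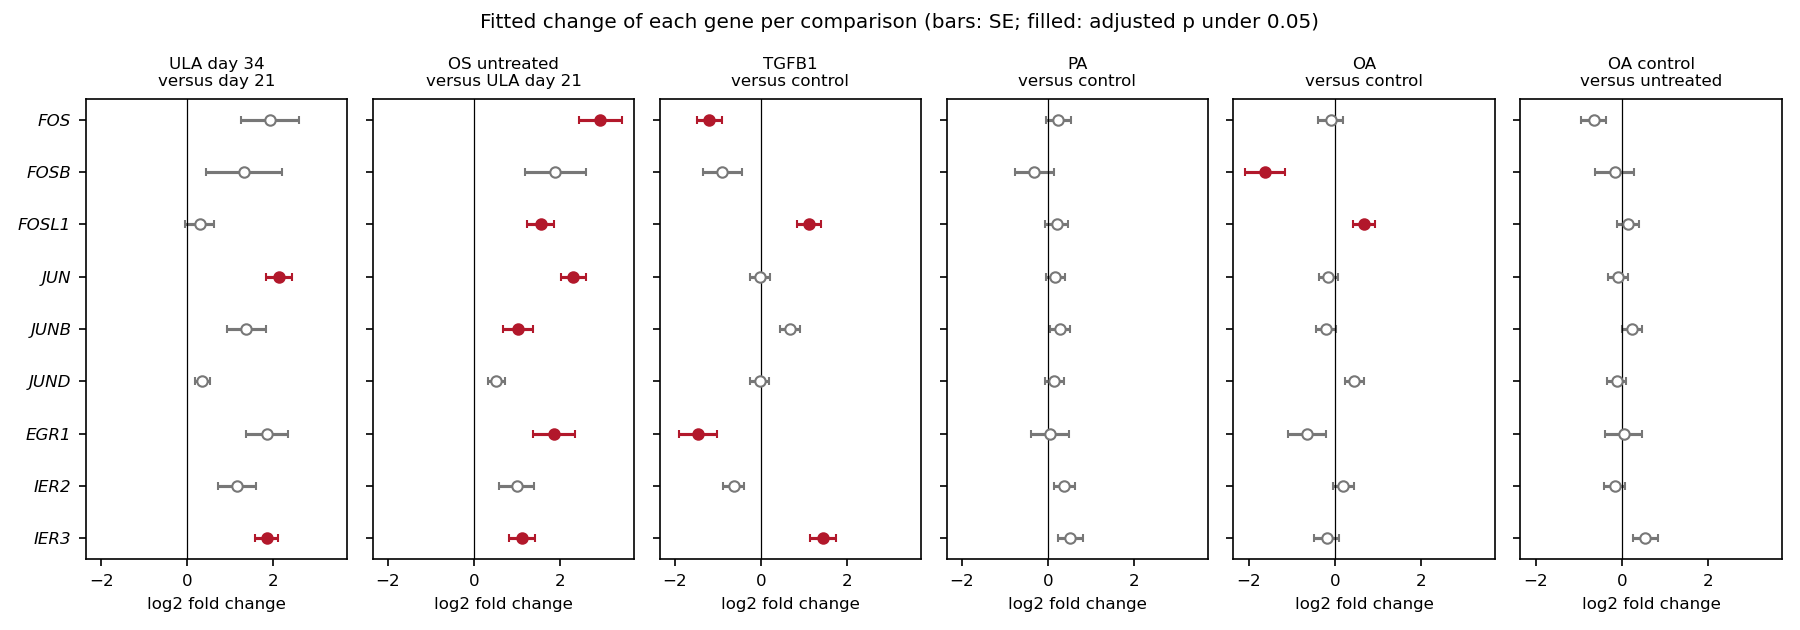
Fitted log2 difference (x, same scale in each panel) of the 9 genes (y) in 6 comparisons; bars are SE and filled red points have an edgeR adjusted p under 0.05. All 9 points lie above 0 in the first pair of panels, FOS and EGR1 lie opposite to FOSL1 and IER3 with TGFB1, and no point is filled with PA or between the OA control and untreated organoids.

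Differences between treatment effects were tested directly. The TGFB1 effect on FOS was lower than the PA effect by 1.44 in log2 units (SE 0.409, edgeR adjusted p 0.0439), the 1 gene of 9 called where 8.79% of all genes were (4.07% higher and 4.71% lower). The call was lost without any of 6 of the 8 libraries involved (adjusted p up to 0.211), the exceptions being TGFB1 control replicate 2 and PA replicate 2. The OA effect on IER3 was lower than the TGFB1 effect by 1.64 (SE 0.420, edgeR adjusted p 0.00953), where 31.8% of all genes were called (16.4% higher and 15.4% lower), and it was called in all 17 alternatives. For FOS, OA less TGFB1 came to 1.11 (SE 0.408, edgeR adjusted p 0.0534), and for JUNB to -0.88 (SE 0.328, edgeR adjusted p 0.0568). Between OA and PA 0 of 9 genes were called by edgeR or DESeq2, where 20.4% of all genes were called (10.1% higher and 10.3% lower). An unadjusted edgeR p under 0.05 was held by 0 of the 9, beside 6665 of 19366 genes. FOSB had the largest of these differences (-1.30, SE 0.637, edgeR adjusted p 0.167).

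Cells were then split by marker genes, so that the same comparisons could be made with fewer cell types mixed. A cell was counted as epithelial-marker or mesenchymal-marker when it held at least 5 UMIs over 9 epithelial genes (such as EPCAM and CDH1, with KRT8 and KRT18 left out because mesenchymal cells can hold their RNA) and 12 mesenchymal genes (such as COL1A1 and PDGFRB) and at least 90% of them came from the one list. These gates mark cells by a few RNAs and are not cell types. Cells of neither kind were left out of the fits below. They were 7.67% (TGFB1 control replicate 2) to 64.1% (day 34 ULA replicate 2) of a library. In ULA organoids they were 38.9%, 27.8% and 42.2% on day 21 and 46.8% and 64.1% on day 34, so the 2 kinds do not cover the whole-library changes. Over the 17 libraries with at least 50 cells of both kinds, FOS, EGR1 and IER3 were higher in mesenchymal-marker cells in 8, 9 and 8, with median ratios of mesenchymal to epithelial CPM of 0.98, 1.05 and 1.00. JUN was higher there in 6 of 17 libraries (median ratio 0.78) and FOSB in 10 (1.23). JUND was higher in mesenchymal-marker cells in 16 of 17 libraries (median ratio 1.23), while IER2 and JUNB were lower there in 13 of 17 (0.67 and 0.86) and FOSL1 in 14 of 17 (0.54).

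Within epithelial-marker cells of ULA organoids 5 of the 9 genes rose from day 21 to day 34 and 0 fell, against 25.8% of 16631 genes called (13.3% higher and 12.5% lower). FOS went from 214.0, 81.2 and 207.6 CPM to 1498 and 691 CPM, a log2 difference of 2.50 (SE 0.497, edgeR adjusted p 0.0112). JUN went from 126.0, 70.1 and 119.3 CPM to 984.3 and 659.9 CPM, a change of 2.76 (SE 0.305, edgeR adjusted p 3.4e-04). FOSB, EGR1 and JUNB rose by 2.62 (SE 0.655), 1.56 (SE 0.351) and 1.501 (SE 0.394). JUN was called in 5 of 5 fits with a library left out. The other 4 were lost without day 34 replicate 1, the library with 151 epithelial-marker cells, and without day 34 replicate 2, at adjusted p values from 0.0728 to 0.305; FOSB was lost without day 21 replicate 1 (0.0978) and JUNB without day 21 replicate 3 (0.0819) as well. With a gate at 75% in place of 90%, FOSB and JUNB were not called (0.0606 and 0.0587).

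In mesenchymal-marker cells of the same organoids 2 of the 9 genes were called higher and 0 lower. All 9 log2 differences were above 0, with a median of 1.31 against 0.01 over all genes. IER3 rose from 71.4, 46.8 and 55.8 CPM to 389.3 and 237.2 CPM, a log2 difference of 2.31 (SE 0.237, edgeR adjusted p 7.8e-05), and FOSL1 from 1.03, 0.93 and 0.84 CPM to 3.07 and 2.47 CPM, a change of 1.45 (SE 0.315, edgeR adjusted p 0.00758). Both were called in 5 of 5 fits with a library left out, and 20.1% of 17598 genes were called (11.6% higher and 8.51% lower). In epithelial-marker cells IER3 was at 0.72 (SE 0.383, edgeR adjusted p 0.207) and FOSL1 at -0.57 (SE 0.350, edgeR adjusted p 0.262), and in mesenchymal-marker cells JUN was at 0.79 (SE 0.329, edgeR adjusted p 0.129) and FOS at 1.60 (SE 0.943, edgeR adjusted p 0.331). Whether the changes differ between the 2 kinds of cell was not tested.

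With TGFB1, epithelial-marker cells gave the 4 calls of the whole libraries and JUNB besides, 3 higher and 2 lower of 9 against 23.7% of 17533 genes called (11.5% higher and 12.2% lower). IER3 rose from 104.6 and 154.9 CPM to 393.9 and 299.9 CPM, a log2 difference of 1.59 (SE 0.293, edgeR adjusted p 0.00161), and was called in 4 of 4 fits with a library left out. JUNB rose from 378.8 and 323.7 CPM to 572.2 and 517.0 CPM, a change of 0.83 (SE 0.243, edgeR adjusted p 0.0254), but was lost without any 1 of the 4 libraries (0.0508 to 0.169). FOSL1 rose by 1.07 (SE 0.305), FOS fell by 1.16 (SE 0.296) and EGR1 fell by 1.60 (SE 0.426). FOS was lost without control replicate 1 (0.108) or TGFB1 replicate 1 (0.168), EGR1 without these (0.218 and 0.139) or TGFB1 replicate 2 (0.0633), and FOSL1 without control replicate 2 (0.166) or either TGFB1 library (0.0689 and 0.111).

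In mesenchymal-marker cells TGFB1 gave 0 calls among the 9 by edgeR and by DESeq2. Only 0.158% of 13302 genes were called there (0.0752% higher and 0.0827% lower), in 287 to 637 cells per library. An unadjusted edgeR p under 0.05 was held by 3 of the 9 genes and by 1545 of the 13302. EGR1 was at -1.32 (SE 0.463), FOSB at -1.01 (SE 0.377) and FOS at -0.82 (SE 0.299), and IER3 was at 0.38 (SE 0.328). For PA, edgeR called 0 of 9 genes in either kind of cell (0.0913% of genes called in epithelial-marker and 0.0301% in mesenchymal-marker cells, there 0.015% in each direction), and 0 had an unadjusted p under 0.05 or were called by DESeq2. Of all genes, 427 of 17533 and 560 of 13302 had such an unadjusted edgeR p in the 2 kinds of cell. With OA, FOSB fell in epithelial-marker cells by 1.51 (SE 0.471, edgeR adjusted p 0.0235; 36.2% of genes called, 17.2% lower), from 89.9 to 123.2 CPM in the control to 30.6 to 33.2 CPM, and FOSL1 was at 0.19 (SE 0.250). The FOSB call was lost without control replicate 2, OA replicate 1 or OA replicate 2 (0.1, 0.121 and 0.0921). The OA libraries held 32 and 21 mesenchymal-marker cells, too few for a test.

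**Figure D3:**
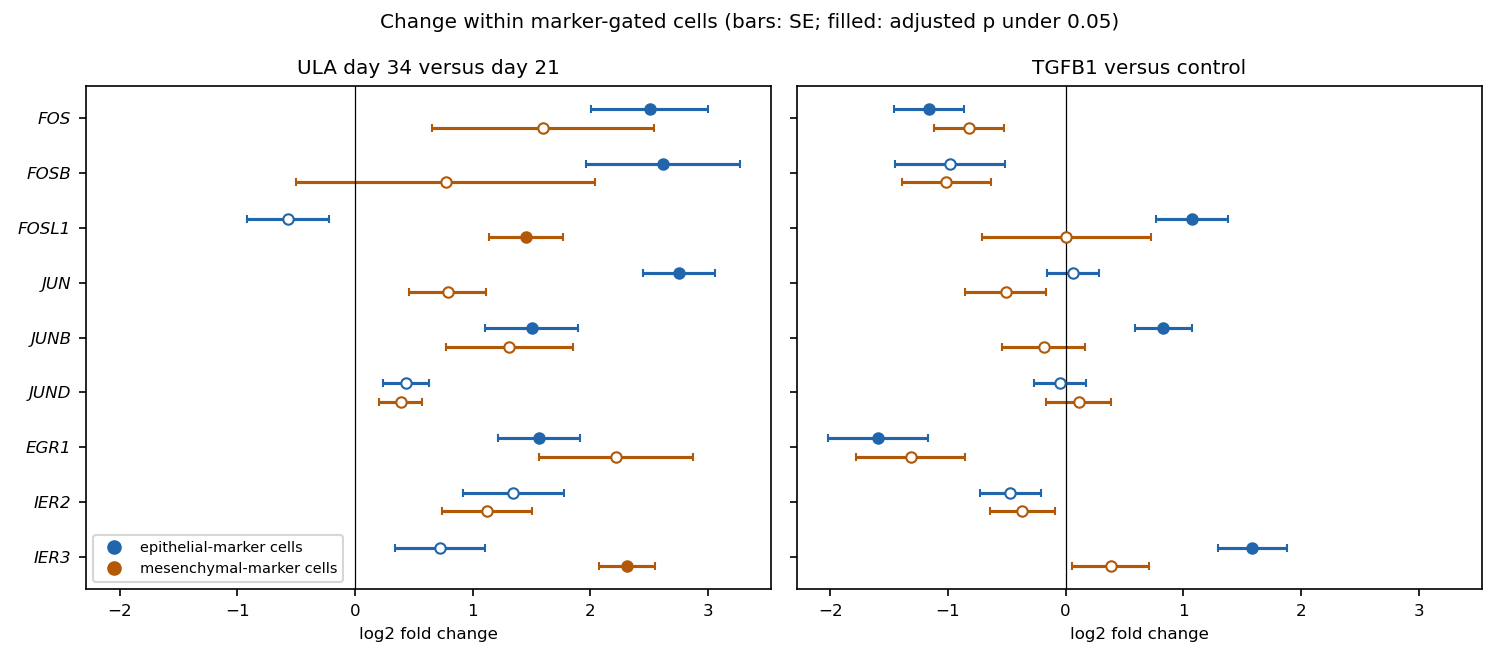
Fitted log2 difference (x) of the 9 genes (y) within epithelial-marker cells (blue) and mesenchymal-marker cells (brown), for day 34 against day 21 ULA organoids (left) and TGFB1 against control (right); bars are SE and filled points have an edgeR adjusted p under 0.05. On the left JUN is filled at 2.76 in epithelial-marker cells and IER3 at 2.31 in mesenchymal-marker cells; on the right the filled points are all of epithelial-marker cells.

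How the genes varied together over the 19 libraries is given as a description, since the libraries share groups, depth and cell makeup. Among the 8 genes with a mean of at least 20 CPM, which leaves out FOSL1, Pearson's r of log2(CPM + 1) was highest for FOS with JUN (0.90), FOSB with EGR1 (0.87) and FOS with EGR1 (0.86). IER2 went with JUND (0.84) and FOSB (0.83). JUNB went with IER3 (0.71), and its r was 0.18 with JUND and 0.27 with EGR1.

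**Figure D4:**
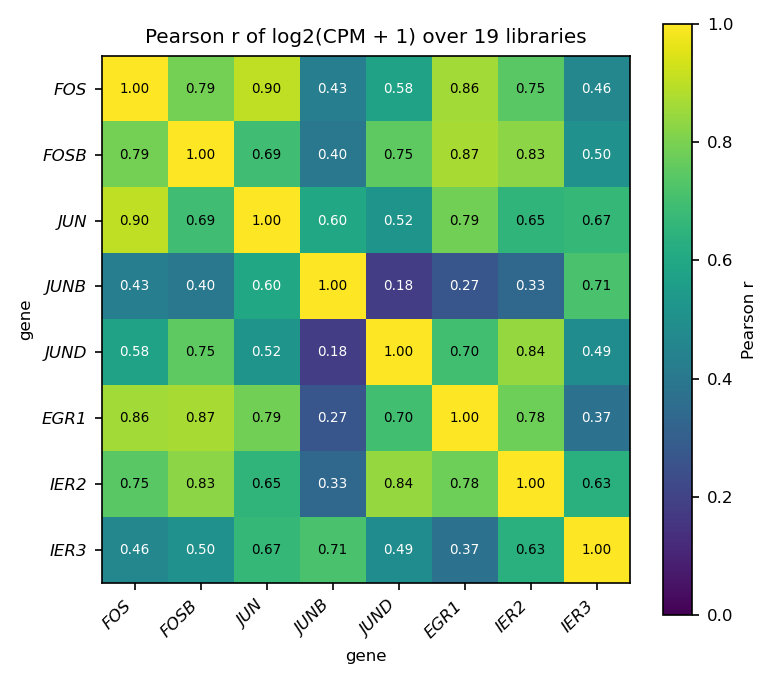
Pearson's r (colour and number) of log2(CPM + 1) over 19 libraries between 8 immediate early genes on both axes. FOS, FOSB, JUN and EGR1 are related with r from 0.69 to 0.90, while JUNB is closest to IER3 at 0.71.

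Of 6234 genes with a mean of at least 20 CPM, those most like FOS over the 19 libraries were JUN (r 0.90), HES1 (0.88), EGR1 (0.86), MIR23AHG (0.86) and TRIB1 (0.85). Those most like JUN were FOS, TRIB1 (0.90), ATF3 (0.89), KLF6 (0.88) and MAF (0.88), and those most like EGR1 were NR4A1 (0.92), MIR23AHG (0.88), FOSB, FOS and HES1 (0.86). FOS, JUN and EGR1 thus had each other or other early response genes among their nearest. FOSL1 was below the minimum of 20 CPM and was not compared. IER3 had none of the remaining genes of the family among its nearest 5, which were MIR4435-2HG (0.89), INHBA (0.87), CITED4 (0.85), S100A2 (0.85) and JOSD2 (0.84).

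Cells with a high mitochondrial share, often taken as a sign of damage, were compared within libraries with cells of a low share. In the 18 libraries with enough cells, EGR1 was higher in cells with 10 to 20% mitochondrial counts than in those under 5% in 17 (median ratio 1.34) and FOSB in 13 (1.32). FOS was higher in 9 of 18 (1.04), JUN in 6 (0.90), and JUND in 0 (0.80). The CPM totals included mitochondrial UMIs, so a gene with an unchanged share of the other UMIs has a ratio below 1 here. Ratios somewhat below 1 therefore do not by themselves show a lower level. Day 21 replicate 3 of the ULA organoids gave the highest of these ratios for FOS (2.16), FOSB (5.81), JUN (1.70), JUNB (1.55), EGR1 (2.78) and IER2 (1.93), and that library also had the highest median mitochondrial share (11.05%). Its cells under 5% had a median of 1962 UMIs and those at 10 to 20% one of 11642, so depth differed with the share there. Between cells under and over 2000 UMIs, FOS was higher in the shallower cells in 8 of 18 libraries (0.97), JUN in 5 (0.95) and EGR1 in 14 (1.47).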

How the data were processed

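Each library was deposited by the authors as a matrix of whole-number UMI counts per gene and cell barcode, without normalization, as the values show. Per the file headers, the software was version 3.0.2 (ULA, TGFB1 and PA) or 6.0.2 (untreated and OA), and the submitters' processing notes name Cell Ranger 3.0.2, bcl2fastq, Scanpy and GRCh38. Kept cells had 500 or more genes and no more than 20% mitochondrial UMIs, doublets were not removed, and UMIs were summed per library. Genes passing filterByExpr were tested with edgeR 4.0.16 (TMM, robust quasi-likelihood, R 4.3.3) over 5 ULA libraries, over 14 OS libraries sharing 1 estimate of spread, and over untreated OS with day 21 ULA. Marker-gated cells needed 50 cells per library. DESeq2 1.42.0, RLE scaling, other filters and leave-one-out fits were alternatives, and scaling by library totals was added after the data were seen. The edgeR fit was tested on simulated whole-library OS counts, with changes added in the TGFB1 libraries. Cell filters, marker gates and the ULA fits were not part of that test. The genes and lists were chosen with earlier results of these data known. All 9 genes are named, with up to 3 called genes of largest change per list (1 is not reported here) and the 5 nearest genes of FOS, JUN, EGR1 and IER3. Positions follow GENCODE v44. The range of depth over the libraries is given in the report, and depth limits precision; intervals for counting error were not computed.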

Additional observations from a re-analysis of the deposited data

Results flagged for a closer look

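Treatment effects on 2 of the genes differed by a test of the difference itself, with p-values adjusted over all genes by edgeR. For FOS the TGFB1 effect minus the PA effect was -1.44, from -1.21 with TGFB1 and 0.24 with PA. It was the 1 gene of 9 called there, beside 8.79% of all genes. For IER3 the OA effect minus the TGFB1 effect was -1.64, from -0.19 with OA and 1.44 with TGFB1. It was likewise 1 of 9, beside 31.8% of all genes called. The FOS difference was called in 2 of 8 fits with a library left out and in 10 of 17 alternatives, and the IER3 difference in 8 of 8 and 17 of 17. Dixon's test for an outlying value was not run, since groups held 2 or 3 libraries.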

How the results depend on the processing

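Values here are counts of the 9 genes called, unless said otherwise. The share of all genes called under each alternative is not given beside them, so these counts do not set the 9 genes against the rest. ULA day 34 against day 21 gave 2, and DESeq2 5, the replicate block 0 and leaving out 1 library 1 to 3. TGFB1 gave 4, a fit of its own groups alone 2 (FOS and EGR1 lost) and leaving out 1 library 0 to 5. OA gave 2, and 1 each under the replicate block, library totals, the stricter cell filter (at least 1000 genes, at most 10% mitochondrial) and cells of at least 2000 UMIs, with 0 to 2 when a library was left out. OS untreated against ULA day 21 gave 6, testing every gene with a count 3 and leaving out 1 library 3 to 7. The OA minus PA effect gave 0, and 1 with every gene with a count tested. TGFB1 minus PA gave 1, and DESeq2 2, every gene 2, the block 0 and a library left out 0 to 3. OA minus TGFB1 gave 1, and DESeq2 4, every gene 2, and 2 each with library totals, the stricter filter, deep cells and the top 10% of cells removed, with 1 to 3 when a library was left out. In epithelial-marker cells ULA gave 5 (gate at 75% 3; a library left out 1 to 6), TGFB1 5 (1 to 4) and OA 1 (DESeq2 2; 0 to 1). In mesenchymal-marker cells ULA gave 2 (DESeq2 5, every gene 4, block 7; 2 to 4) and TGFB1 0 (every gene 1; 0 to 2). The other counts stayed within 1.5 times, and the scaling by library totals was chosen after seeing the data.

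Signs changed only for log2 differences that had not passed. With TGFB1, JUN reached 0.0030, 0.00698 and 0.0285 under the stricter filter, deep cells and the top 10% removed, and JUND 0.0255 and 0.0651 under the first 2 of these. With library totals IER2 was at -0.14 for OA, and FOSL1 and EGR1 at -0.015 and -0.0957 for the OA control against untreated, where FOSL1 was at -0.0428 with the top 10% removed. Leaving out 1 library gave for TGFB1 -1.52 to 0.23 in FOSB, -0.16 to 0.12 in JUN and -0.0894 to 0.0348 in JUND. For PA it gave -0.0488 to 0.49 in FOS, -0.0568 to 0.41 in FOSL1, -0.0747 to 0.58 in JUNB, -0.0165 to 0.32 in JUND and -0.20 to 0.38 in EGR1, and for OA -0.23 to 0.0278 in FOS. For the OA control against untreated it gave -0.44 to 0.19 in FOSB, -0.14 to 0.38 in FOSL1, -0.27 to 0.12 in JUN, -0.31 to 0.11 in JUND, -0.44 to 0.79 in EGR1 and -0.35 to 0.0527 in IER2. The cause was not tested in any of these cases.

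Replicate numbers did not pair the libraries: deviations of same-numbered libraries from their group means correlated at -0.1654 and -0.2695 (ULA), -0.2219 (TGFB1), 0.0887 (PA), 0.0408 (OA) and -0.4403 (OA control against untreated). Under the block JUN had an adjusted p of 0.0764 and IER3 one of 0.0820 between the ULA days, with larger differences (2.33 and 1.93). With the lone libraries of a left-out fit, the spread is assumed to be that of the other groups. FOSL1 rested on 27 to 511 UMIs per library.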
